A study of Junco hyemalis with 13 samples.

Results

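Nuclear genes for ribosomal proteins and for oxidative phosphorylation were followed through the hypothalamus of 13 male dark-eyed juncos (Junco hyemalis). The birds were 6 migrants (J. h. hyemalis), which winter alongside the residents and leave for the north in spring, and 7 residents (J. h. carolinensis), which stay and breed at the site. All were free-living males taken in March, before the migrants left. Hypothalamus punches from successive sections of each brain were pooled, and each bird gave 1 stranded poly(A) RNA-seq library. The comparison of residents with migrants asks how hypothalamic expression differs between birds that prepare to breed and birds that prepare to migrate while sharing the same day length and place. No bird was treated. Population and season of sampling were the only labels, and population goes with subspecies, so the effects of ancestry and of life stage cannot be told apart.

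The genes were chosen by symbol: cytosolic ribosomal proteins (RPL, RPS, RPLP and RPSA symbols) and the subunits of respiratory complexes I to V (NDUF, SDH, UQCR, COX and ATP5 symbols), without assembly factors. Symbols come from the part of the study's annotation used here, which runs over identifiers up to a fixed point in their order and so holds a slice of each family and not the whole. There were 58 members by symbol, and 56 of them were among the 9938 elements tested, which had at least 5 counts in at least 6 libraries. The 2 below that minimum were RPL3L, with 5 counts over all 13 libraries, and NDUFB9, with 34. The 56 split evenly into 28 ribosomal protein genes (17 of the large subunit and 11 of the small) and 28 oxidative phosphorylation genes (15 of complex I, 3 of complex III, 4 of complex IV and 6 of complex V). Complex II had no member in the slice.

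Ribosomal proteins and ribosomal RNA together form the machine that translates messenger RNA. Their genes are among the most highly expressed in most cells and are usually controlled as a group, so that subunits are made in matching amounts. Oxidative phosphorylation takes electrons from food through complexes I to IV in the inner mitochondrial membrane and uses the resulting proton gradient to make ATP at complex V. Neurons depend heavily on this supply, and most subunits of the complexes are encoded in the nucleus, as all those described here are.

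Total counts ran from 4308064 to 5826833 per library and overlapped between populations. On the first principal component of log2 CPM (CPM, counts scaled with TMM factors to a common library size), migrant replicate 1 scored 49.2 and resident replicate 4 scored 42.7, whereas the other 11 libraries lay between -21.5 and 2.32. These 2 libraries, called migrant 1 and resident 4 from here, are kept in all values unless stated. Many results on the members are also given without them. Results for genes of neighbouring pathways are given with all libraries only. Each element is named by a zebra finch protein that matched it, and counts are not divided by transcript length, so levels are compared between birds and not between genes. Only read pairs that aligned uniquely were counted, so reads shared with any near-identical paralogs or pseudogenes may be missing. In bulk tissue, fewer cells of a type and less RNA per cell cannot be told apart.

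The 28 ribosomal protein genes took between 3.82% and 6.85% of all counts in a library. In migrants 1 to 6 the share was 6.44%, 4.39%, 3.82%, 5.26%, 5.41% and 5.80%. In residents 1 to 7 it was 4.28%, 4.55%, 5.55%, 6.85%, 3.83%, 5.15% and 4.33%. Resident 4 and migrant 1 were highest, migrant 3 and resident 5 lowest, and the populations overlapped over nearly their whole range. The mean was 5.19% ± 0.95 (SD, n = 6) in migrants and 4.93% ± 1.02 (SD, n = 7) in residents. Without migrant 1 and resident 4 it was 4.94% ± 0.810 (n = 5) and 4.61% ± 0.627 (n = 6).

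The 28 oxidative phosphorylation genes took between 1.66% and 3.0% of counts. Their share in migrants 1 to 6 was 3.0%, 2.05%, 1.66%, 2.39%, 2.58% and 2.5%, and in residents 1 to 7 it was 1.99%, 2.26%, 2.36%, 2.83%, 1.69%, 2.30% and 1.80%. The same 4 libraries stood at the ends of the order, with migrant 1 first here and resident 4 next. The mean was 2.36% ± 0.460 (SD, n = 6) in migrants and 2.17% ± 0.386 (SD, n = 7) in residents, and 2.23% ± 0.379 (n = 5) and 2.07% ± 0.280 (n = 6) without migrant 1 and resident 4. Counting error was small beside these differences between birds, since the 95% Wilson intervals were at most 0.0477 percentage points wide for ribosomal protein genes and 0.0313 for oxidative phosphorylation genes. Intervals of this kind cover counting error only.

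**Figure D1:**
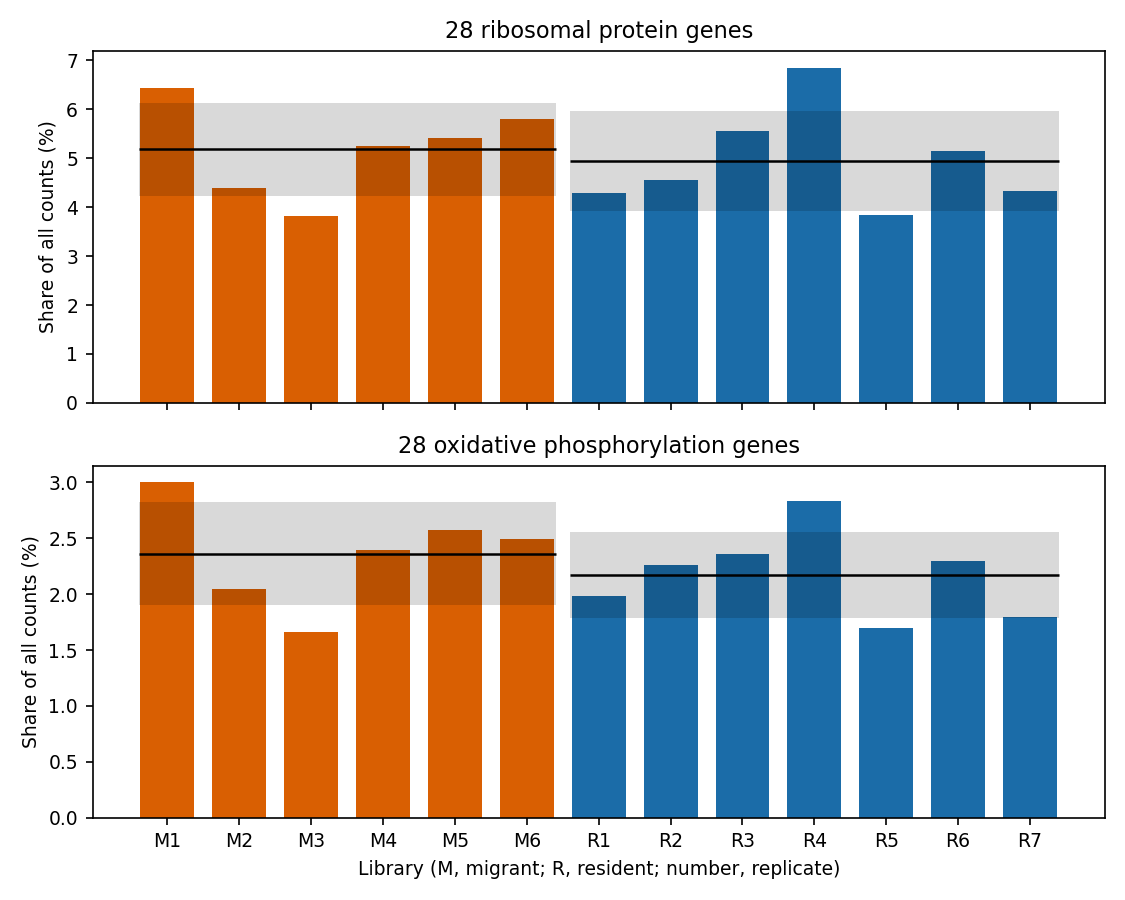
Share of all counts (%) taken by the 28 ribosomal protein genes (upper panel) and the 28 oxidative phosphorylation genes (lower panel) in each library, with migrants in orange and residents in blue; black lines are population means and grey bands 1 SD. Ribosomal protein shares run from 3.82% in migrant 3 to 6.85% in resident 4, and the populations overlap in both panels.

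Together both families took from 5.48% of counts in migrant 3 to 9.68% in resident 4. Within a library the families kept a much steadier relation to each other than their shares did between birds. Ribosomal protein counts were 2.01 to 2.42 times those of oxidative phosphorylation genes, with a coefficient of variation (CV, the SD as a percent of the mean) of 5.54% over the 13 birds, whereas the shares themselves had CVs of 18.9% and 18.4%. The ratio of large to small subunit counts was steadier still, between 1.47 and 1.61 with a CV of 2.73%. The large subunit genes took 2.27% to 4.07% of counts and the small subunit genes 1.54% to 2.78%.

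The respiratory complexes differed in how much their share moved between birds. The 4 members of complex IV (cytochrome c oxidase, which passes electrons to oxygen) ran from 0.510% of counts in migrant 3 to 1.10% in migrant 1, with a CV of 23.1%. Complex III, which passes electrons to cytochrome c, had a CV of 20.2% and complex I, the entry point for electrons from NADH, one of 16.8%. The 6 members of complex V, the ATP synthase, varied least as a sum, from 0.296% in resident 5 to 0.469% in migrant 1, with a CV of 13.4%. Without migrant 1 and resident 4 the order was the same, with CVs of 22.4%, 16.4%, 12.2% and 7.17%. These sums rest on 3 to 15 genes each and were compared as descriptions, without a test.

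Gene by gene, nearly every member was highest in 1 of the same 2 libraries. Resident 4 was the highest of the 13 for 29 members and migrant 1 for 25, which makes 54 of 56. Over all elements tested, 30.1% were highest in 1 of these libraries. Among the 3334 other elements at or above the lowest member's level, 37.1% were. These other elements had a median level of 125.8 CPM, against 1094 CPM for the members, so their abundance was not matched. All 28 ribosomal protein genes and 25 of the 28 oxidative phosphorylation genes had these 2 libraries as their highest pair, against 9.09% of all elements and 15.1% of those at or above the lowest member's level. Ribosomal protein genes peaked mainly in resident 4 (21 of 28) and oxidative phosphorylation genes mainly in migrant 1 (18 of 28). The exceptions to the top place were COX6C, highest in migrant 5, and NDUFS1, highest in resident 1. Genes of neighbouring pathways, given below, also often peaked in migrant 1 or resident 4.

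The lowest places were shared by a few birds as well. Migrant 3 was lowest for 26 members, resident 5 for 17 and resident 7 for 6. In migrant 3, 8.91% of all elements were lowest, and in resident 5 it was 9.10%. Migrant 1 and resident 4 were lowest for more elements, 17.8% and 14.9%, but each for 0 members. Measured against the 13-library median of each gene on the log2(CPM + 1) scale, the median ribosomal protein gene stood at 0.49 in migrant 1, 0.61 in resident 4, -0.45 in migrant 3 and -0.49 in resident 5. The corresponding medians for oxidative phosphorylation genes were 0.53, 0.47, -0.40 and -0.44. The lowest 2 birds, like the highest 2, were thus 1 migrant and 1 resident.

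**Figure D2:**
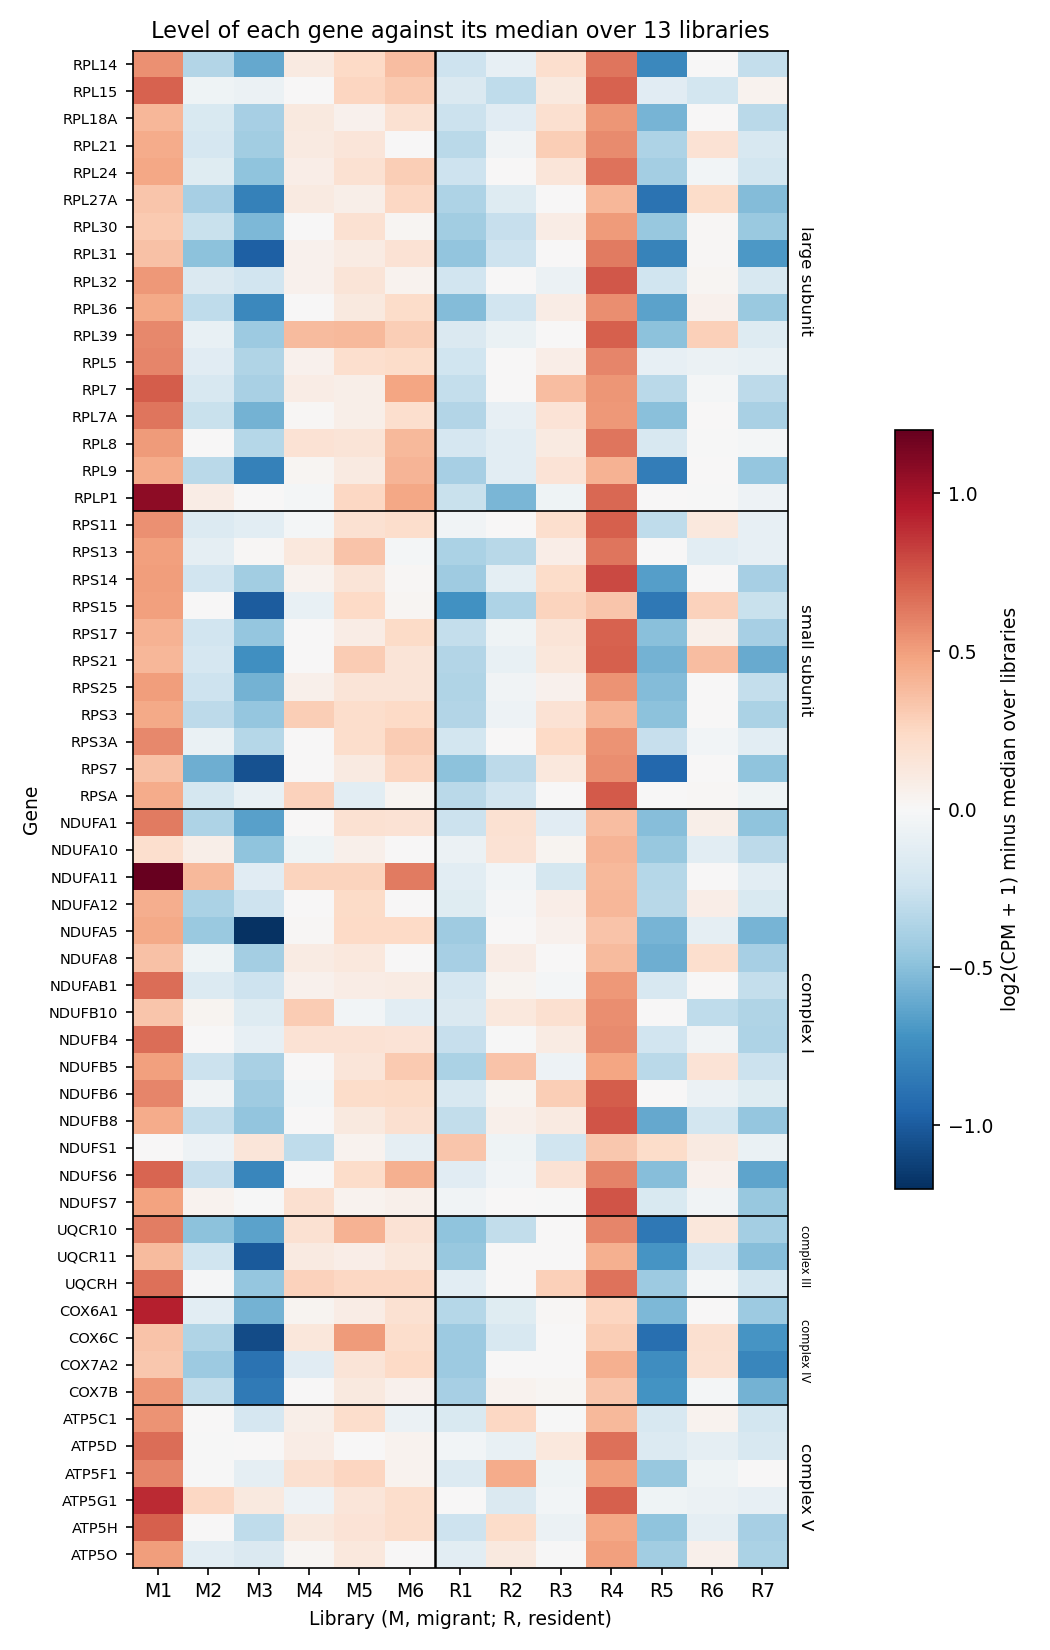
Level of each of the 56 genes (rows, grouped by ribosomal subunit or respiratory complex) in each library (columns), as log2(CPM + 1) minus the gene's median over 13 libraries; red is above and blue below that median. The columns of migrant 1 and resident 4 are red in almost every row and those of migrant 3 and resident 5 mostly blue, whereas the row of NDUFS1 follows another order.

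Most ribosomal protein genes tracked the rest of their family closely from bird to bird. For each gene, Pearson's r was taken between its log2 level and the mean of the other 27 members over the 13 libraries, as a description without a test, since all members of a library share its RNA, its depth and its denominator. The median r was 0.953, and 23 of 28 genes were above 0.9. The closest were RPS25, a small subunit protein used in some forms of initiation inside a messenger RNA, and RPL36, a large subunit protein, both at 0.99. RPS25 also held the steadiest place within its family, with a CV of 3.25% for its share of ribosomal protein counts. In migrants RPS25 had a lowest level of 917 CPM, a median of 1467 and a highest of 1923, and in residents 945.8, 1317 and 1980.

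The loosest ribosomal protein gene was RPLP1, which encodes an acidic protein of the large subunit stalk that recruits elongation factors. Its r with the rest of the family was 0.72 (0.39 without migrant 1 and resident 4), and its share of family counts had a CV of 20.5%. RPS13 and RPSA, both of the small subunit, followed at 0.75 each, and at 0.42 and 0.38 without these 2 libraries. RPSA is known also as a receptor for laminin. Without these libraries the family median was still 0.939, and 25 of 28 genes were above 0.5.

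Oxidative phosphorylation genes moved together almost as closely, with a median r of 0.916 to the rest of their family and 18 of 28 above 0.9. COX7B, a small nuclear subunit of complex IV, was closest at 0.97, and its share of family counts had the smallest CV, 4.99%. The genes below 0.8 were NDUFA11 at 0.76, ATP5G1 at 0.72, NDUFB10 at 0.69 and NDUFS1 at -0.10. ATP5G1 encodes subunit c, which forms the rotating ring of ATP synthase, and its r fell to 0.11 without migrant 1 and resident 4. Without them the family median was 0.8825, with 25 of 28 genes above 0.5. NDUFB10, an accessory subunit of the membrane arm of complex I, was then at 0.38. Set beside these values of single genes, 2.10% of the 3334 other elements at or above the lowest member's level had an r above 0.9 with the ribosomal protein level and 3.39% with the oxidative phosphorylation level, and their median r was 0.13 and 0.145. Over all 9882 elements tested that were not members these shares were 0.739% and 1.16%. All of these values use every library. Both sets include the 4 family members named by locus number and can hold others that lie outside the slice.

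NDUFS1, the largest core subunit of complex I, which carries iron-sulfur clusters, was the single oxidative phosphorylation gene with an r below 0.5. Its levels in migrants 1 to 6 were 59.2, 56.7, 65.3, 47.8, 61.1 and 54.7 CPM, and in residents 1 to 7 they were 74.6, 57.0, 50.1, 74.3, 69.1, 63.7 and 55.9 CPM. Resident 1 and resident 4 were highest and migrant 4 lowest, and resident 5 and migrant 3, at the bottom for most members, were among the 4 highest libraries. Without migrant 1 and resident 4 its r with the rest of the family was -0.55. NDUFS1 also had the lowest mean level of the 56 (60.7 CPM) and the fewest counts, 227 in its lowest library, where the CV expected from counting over the libraries was 5.85% against an observed CV of 13.9%. NDUFS1 and NDUFS7 are core subunits of complex I, and NDUFS7 had an r of 0.83.

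As whole families, ribosomal protein and oxidative phosphorylation genes rose and fell in the same birds. The family level, the mean of the members' centred log2 levels, ran from -0.47 to 0.61 for ribosomal protein genes and from -0.41 to 0.56 for oxidative phosphorylation genes. Pearson's r between both levels was 0.969 and Spearman's rho 0.956 (n = 13). The r was 0.940 without migrant 1 and resident 4, 0.951 without resident 4 and migrant 3, which lay farthest from the median, 0.989 within migrants (n = 6) and 0.953 within residents (n = 7).

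**Figure D3:**
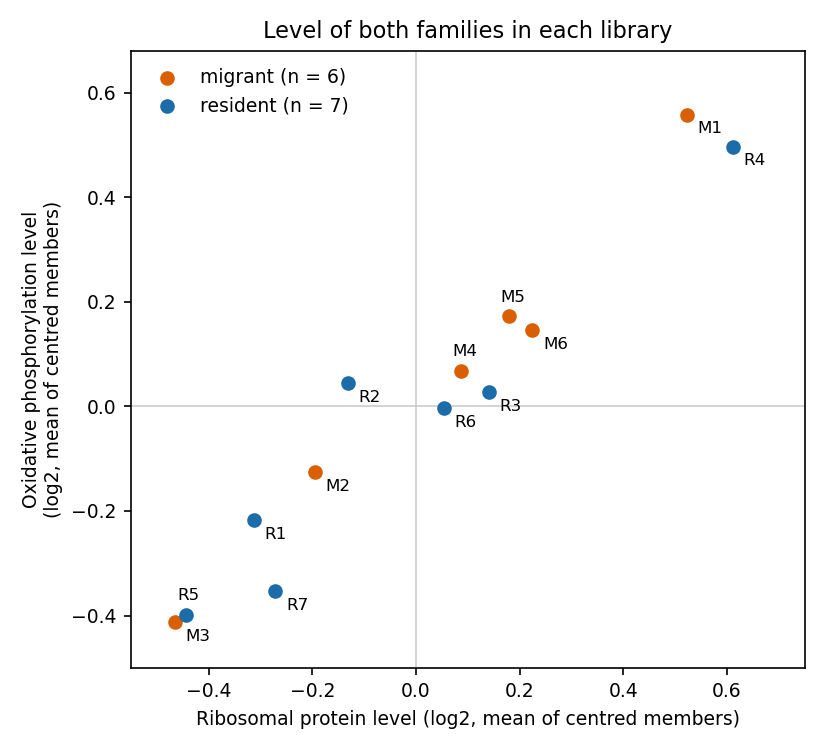
Level of the oxidative phosphorylation genes (y axis) against that of the ribosomal protein genes (x axis) in each library, both as the mean over 28 members of log2(CPM + 1) centred on 13 libraries; points are birds, orange for migrants and blue for residents. The points lie close to a line (r = 0.969), with M1 and R4 at its upper end and M3 and R5 at its lower end.

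The TMM factors, by which CPM are scaled, had the same 4 libraries at their ends in the opposite order. They were lowest in resident 4 (0.897) and migrant 1 (0.905) and highest in migrant 3 (1.094) and resident 5 (1.084). Computed without the members they were 0.895, 0.901, 1.092 and 1.082. The shares of all counts given above use no such factor. Ribosomal protein level had an r of -0.52 with the total count of the library and 0.73 with HBAA, the alpha-globin gene used as a marker of blood (n = 13 for each). These were -0.30 and 0.68 without migrant 1 and resident 4. The oxidative phosphorylation level had an r of -0.47 with total count and 0.73 with HBAA, and -0.23 and 0.71 without these 2 libraries. Within migrants, HBAA had an r of 0.65 with the ribosomal protein level and 0.59 with the oxidative phosphorylation level. Within residents these were 0.84 and 0.87. Summed over HBAA and HBAD, blood markers ranged from 4782 to 12700 CPM in migrants and from 3496 to 10380 CPM in residents, and migrant 1 ranked 4 and resident 4 ranked 2 of 13. The summed level of 5 neuron markers (UCHL1, STMN2, THY1, SYN2 and SYNGR3) ranged from 2790 to 4752 CPM in migrants and from 2866 to 5579 CPM in residents, with an r of 0.45 to the ribosomal protein level and 0.59 to the oxidative phosphorylation level. Without migrant 1 and resident 4 these were 0.28 and 0.48, within migrants 0.72 and 0.78, and within residents 0.29 and 0.49. The single neuron markers disagreed. Their r with the ribosomal protein level was 0.51 for UCHL1, 0.50 for STMN2, 0.16 for THY1, -0.40 for SYN2 and -0.66 for SYNGR3. With the oxidative phosphorylation level it was 0.64, 0.62, 0.28, -0.29 and -0.57. UCHL1 and STMN2 make up most of the sum. The microglial markers CSF1R and CD74 summed to 355.1 to 832.4 CPM in migrants and 314.6 to 725.1 CPM in residents. Migrant 1 ranked 1 and resident 4 ranked 10 for this sum and for CD74, its larger part, but 10 and 8 for CSF1R. VWF, DCN and LUM, of vessels and stroma, summed to 179.1 to 255.8 CPM in migrants and 140.9 to 325.2 CPM in residents. Migrant 1 ranked 11 and resident 4 ranked 1 for this sum and for VWF, its larger part. They ranked 1 and 11 for DCN and 5 and 13 for LUM, so the single markers disagreed. RSPH1, of ependymal cells, ranged from 9.05 to 16.7 CPM in migrants and from 9.10 to 16.3 CPM in residents. Hypothalamic peptide genes were detected in both populations, with 6 of them summing to 1112 to 1562 CPM in migrants and 947.5 to 2386 CPM in residents. The part of blood, depth, scaling or cell makeup in the family levels was not tested.

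No member of either family passed the test between populations. With edgeR's quasi-likelihood test and Benjamini-Hochberg adjustment over all 9938 elements, 0 of 56 members passed an adjusted p of 0.05, and adjusted p-values of the members lay between 0.996 and 0.999. The same test called 0% of all elements. At an unadjusted p under 0.05, 1 of 56 was lower in residents, against 2.14% of all elements, and 0 of 56 were higher, against 2.3%. DESeq2, which called 0.0302% of all elements at an adjusted p of 0.05, called 0 of 56, and limma-voom also called 0. In 0 of 56 members did every resident lie below every migrant, a pattern found in 0.0402% of all elements.

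Point estimates leaned one way. Of the 56 log2 fold changes (resident minus migrant), 53 were below 0, against 49.6% of all elements. The median was -0.10 for ribosomal protein genes and -0.11 for oxidative phosphorylation genes, where all elements had a median of 0.00. By subgroup it was -0.11 for the large subunit, -0.08 for the small subunit, -0.10 for complex I, -0.14 for complex III, -0.18 for complex IV and -0.11 for complex V. Members that rise and fall together do not give 56 separate signs, and leaving out single birds moved this lean. Without migrant 1 the medians were 0.00 for ribosomal protein genes and 0.01 for oxidative phosphorylation genes, with 27 of 56 estimates below 0. Without resident 4 they were -0.24 and -0.23, and without both of these libraries -0.13 and -0.11. The blood markers HBAA and HBAD were also estimated lower in residents, at log2 fold changes of -0.59 (SE 0.26) and -0.53 (SE 0.24, edgeR adjusted p 0.996 for each), and their part in the lean was not tested.

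Other single birds and settings also moved these medians by over 1.5 times. For ribosomal protein genes the median was -0.05 without resident 1, -0.03 without resident 5, -0.06 without resident 7, and -0.15 and -0.20 without migrants 2 and 3. For oxidative phosphorylation genes it was -0.06 without resident 5, -0.06 without resident 7 and -0.18 without migrant 3. With the number in the library name as a covariate the medians were -0.33 and -0.28. None of these fits called a member at an adjusted p of 0.05. The library numbers ran from 1 to 9 in migrants and from 4 to 14 in residents, so they go partly with population. Their r with the ribosomal protein and oxidative phosphorylation levels was 0.66 and 0.71 within residents and 0.16 and 0.02 within migrants. The part of library number in these levels was not tested.

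The 95% intervals of the fold changes show what sizes the data allow for each gene taken alone. All 56 intervals lay between -1 and 1 on the log2 scale, 29 of 56 lay between -0.5 and 0.5, and 55 included 0. Among ribosomal protein genes, the lowest bound was that of RPLP1 (-0.78) and the highest that of RPS21 (0.45). Standard errors ran from 0.16 to 0.24 for ribosomal protein genes and from 0.12 to 0.24 for oxidative phosphorylation genes.

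**Figure D4:**
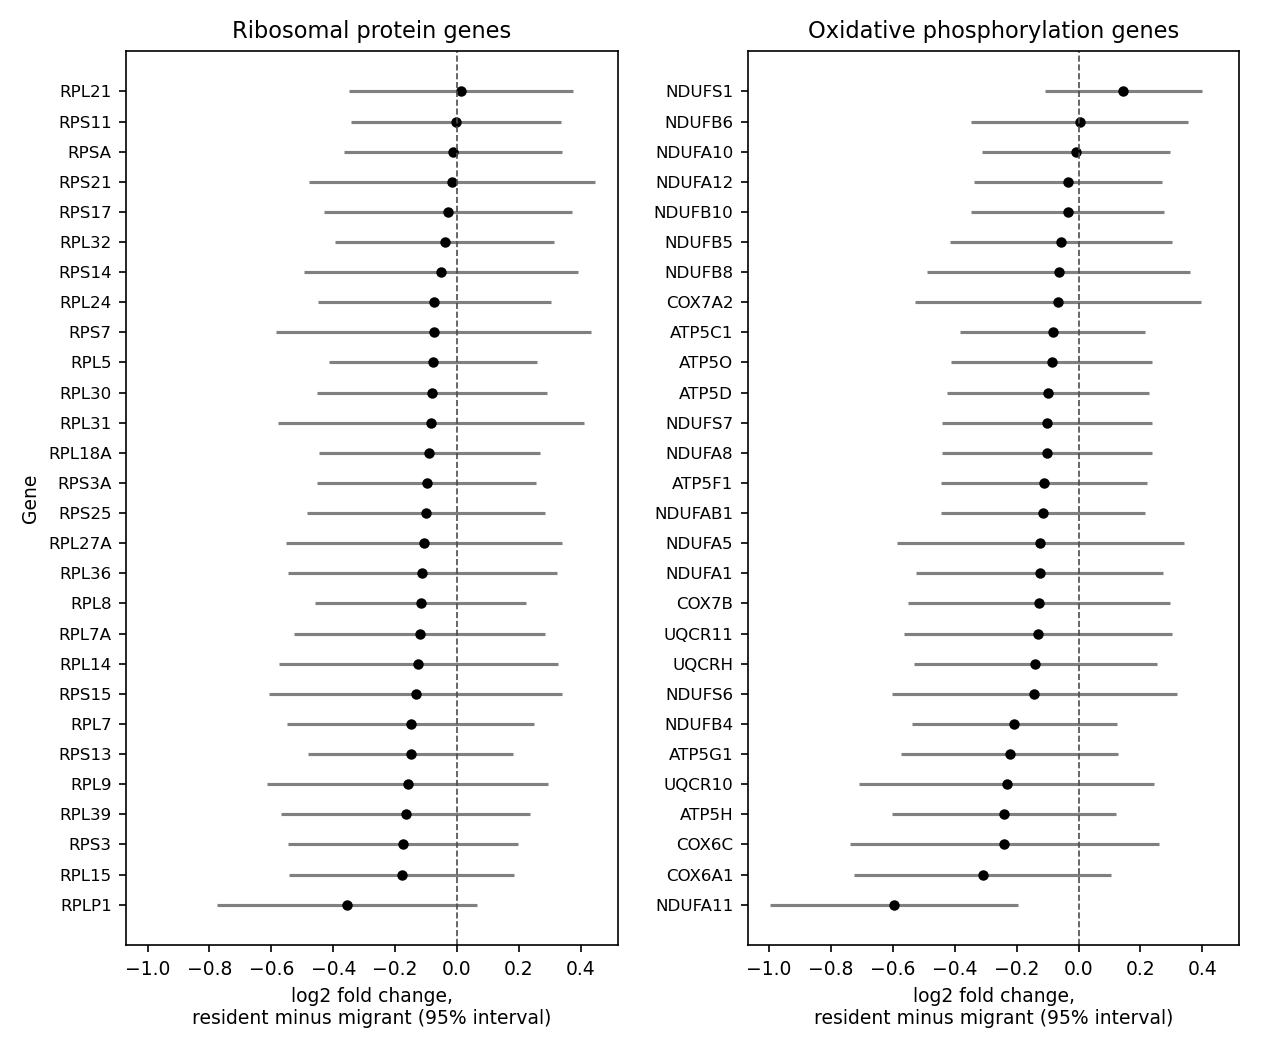
Log2 fold change of each gene (x axis, resident minus migrant, from edgeR) for ribosomal protein genes (left) and oxidative phosphorylation genes (right); points are estimates and grey lines 95% intervals. Almost all estimates lie just left of 0, and the interval of NDUFA11 (-0.996 to -0.194) is the 1 of 56 that leaves out 0.

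NDUFA11, an accessory subunit in the membrane arm of complex I, showed the largest estimated difference of the 56. Migrants 1 to 6 had 414.8, 210.8, 146.2, 193.5, 193.4 and 247.2 CPM. Residents 1 to 7 had 147.2, 156.4, 138.1, 210.5, 126.0, 160.3 and 147.2 CPM. Migrant 1 stood far above every other bird, and of the other migrants all but migrant 3 lay above every resident except resident 4. The log2 fold change was -0.60 (SE 0.19, 95% interval -0.996 to -0.194), with an adjusted p of 0.996 by edgeR and 0.683 by DESeq2. The exact two-sided permutation p was 0.0175. It was not adjusted for the number of genes, and NDUFA11 was singled out as the member with the smallest edgeR p. Without migrant 1 and resident 4 the log2 fold change was -0.44 (SE 0.12, edgeR adjusted p 0.698), and without migrant 1 alone -0.36. NDUFA11 had the widest range of the members, with its highest library 3.29 times its lowest. The other 14 complex I genes gave log2 fold changes between -0.21 (NDUFB4) and 0.14 (NDUFS1).

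RPLP1 had the smallest p among ribosomal protein genes. Its level had a lowest value of 1082, a median of 1244 and a highest of 2316 CPM in migrants, and 752.9, 1066 and 1773 CPM in residents. Migrant 1 and resident 4 were each well above the rest of their population, and residents 1 and 2 were the lowest birds. The log2 fold change was -0.36 (SE 0.20, edgeR adjusted p 0.996, permutation p 0.147), and -0.31 (SE 0.13, edgeR adjusted p 0.708) without these 2 libraries. It was -0.16 without migrant 1 alone and -0.52 without resident 4 alone. RPL15, whose deposited description reads as ribosomal protein L10, ran from 865.9 to 1484 CPM in migrants (median 995.4) and from 732.8 to 1487 CPM in residents (median 824.1), with a log2 fold change of -0.18 (SE 0.17). This was -0.057 without migrant 1 and -0.33 without resident 4.

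COX6A1, the widely expressed form of a complex IV subunit, was next among oxidative phosphorylation genes. In migrants the lowest, median and highest levels were 947.9, 1470 and 2693 CPM, and in residents 966.7, 1269 and 1684 CPM. Migrant 1 lay far above the other 12 birds, which overlapped between populations. The log2 fold change was -0.31 (SE 0.20, edgeR adjusted p 0.996, permutation p 0.272), -0.17 (SE 0.14) without migrant 1 and resident 4, and -0.091 without migrant 1 alone. ATP5H, subunit d in the peripheral stalk of ATP synthase, ran from 355.2 to 726.0 CPM in migrants (median 486.1) and from 313.6 to 608.5 CPM in residents (median 407.7), with a log2 fold change of -0.24 (SE 0.17), which was -0.10 without migrant 1.

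**Figure D5:**
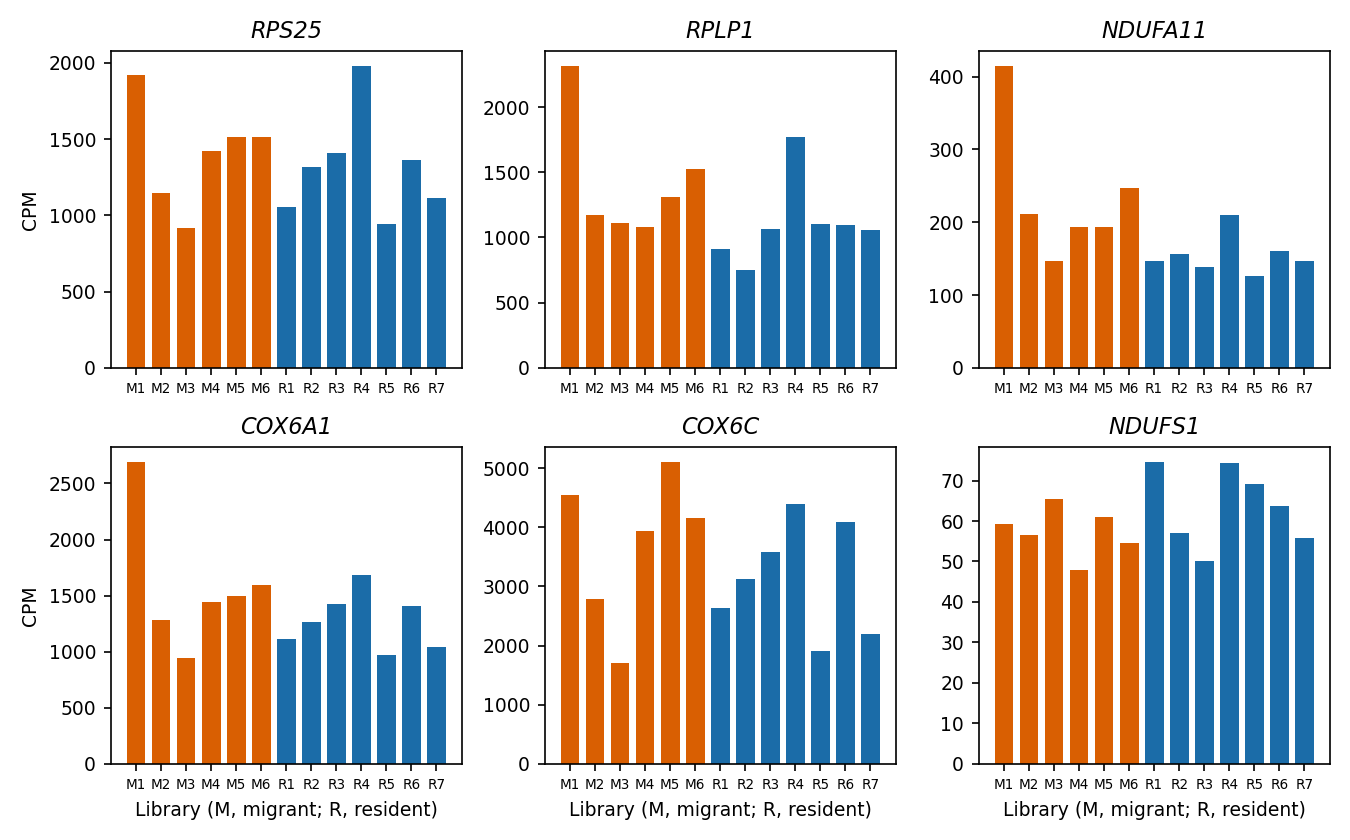
CPM (y axis) of RPS25, RPLP1, NDUFA11, COX6A1, COX6C and NDUFS1 in each library, with migrants in orange and residents in blue. RPS25 shows the order shared by most members, and NDUFA11 and COX6A1 have migrant 1 far above the rest. RPLP1 is highest in migrant 1 with resident 4 next, COX6C is highest in migrant 5 and NDUFS1 is highest in residents 1 and 4.

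The ribosomal protein genes with the most counts were RPS3A, RPL9 and RPS7, at mean levels of 4273, 4113 and 3550 CPM. RPS3A, of the small subunit, had a lowest level of 3163, a median of 4351 and a highest of 5979 CPM in migrants, and 3321, 3929 and 5848 CPM in residents. Its highest library was 1.89 times its lowest, the narrowest range of the family, followed by RPS3 at 1.92 and RPL5 at 1.93. RPS3 lies where messenger RNA enters the ribosome, and ran from 1103 to 2080 CPM in migrants (median 1778) and from 1083 to 2024 CPM in residents (median 1459). RPL5, which helps to bring a ribosomal RNA into the large subunit, ran from 700.4 to 1350 CPM in migrants (median 981.9) and from 760.7 to 1351 CPM in residents (median 854.2). In all 3 the populations covered nearly the same range, and the log2 fold changes were -0.10, -0.17 and -0.08. Without migrant 1 they were 0.0059, -0.094 and 0.036, and without resident 4 they were -0.21, -0.28 and -0.20.

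RPS7 and RPL31 were among the widest-ranging ribosomal protein genes, behind RPLP1 (3.08 times between its ends). RPS7, a small subunit protein, had a lowest level of 1858, a median of 3982 and a highest of 4910 CPM in migrants, and 1993, 3093 and 5649 CPM in residents, a ratio of 3.04. RPL31, a large subunit protein near the exit of the peptide tunnel, had 1624, 3384 and 4094 CPM in migrants and 1839, 2695 and 4951 CPM in residents, a ratio of 3.05. Unlike RPLP1, both followed their family closely (r = 0.96 and 0.97) and went especially low in migrant 3 and resident 5. RPL9, of the large subunit, was like them, with 2422, 4451 and 5799 CPM in migrants and 2393, 3904 and 5696 CPM in residents. The log2 fold changes of RPS7, RPL31 and RPL9 were -0.08, -0.08 and -0.16, with SEs of 0.24, 0.24 and 0.22. They were 0.029, 0.018 and -0.061 without migrant 1 and -0.24, -0.27 and -0.28 without resident 4, and leaving out migrant 3, migrant 6 or resident 5 also moved each by over 1.5 times.

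COX6C, UQCRH and COX7A2 had the most counts among oxidative phosphorylation genes. COX6C, a small subunit of complex IV, had a lowest level of 1700, a median of 4044 and a highest of 5107 CPM in migrants, and 1908, 3128 and 4402 CPM in residents. Its highest library was 3.0 times its lowest, and this ratio was the same without migrant 1 and resident 4, since neither end of its range lay in them. UQCRH, the hinge protein of complex III, had 1691, 2784 and 3692 CPM in migrants and 1730, 2302 and 3672 CPM in residents. COX7A2, of complex IV, had 1073, 2007 and 2480 CPM in migrants and 1151, 1978 and 2658 CPM in residents. The log2 fold changes were -0.24 (SE 0.24), -0.14 (SE 0.19) and -0.07 (SE 0.22). COX6C was at -0.13 without migrant 5, -0.39 without migrant 3 and -0.15 without resident 5. UQCRH was at -0.027 without migrant 1, -0.28 without resident 4, -0.24 without migrant 3 and -0.074 without resident 5, and COX7A2 at 0.026 without migrant 1 and -0.19 without resident 4.

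NDUFA5, an accessory subunit in the matrix arm of complex I, fell lowest of all members relative to its median in migrant 3, at -1.19 on the log2 scale. It ran from 592.0 to 1850 CPM in migrants (median 1478) and from 915.5 to 1712 CPM in residents (median 1249), a ratio of 3.12. ATP5C1, the gamma subunit in the central stalk of ATP synthase, was among the steadiest, from 671.8 to 1118 CPM in migrants (median 790.1) and from 660.9 to 1008 CPM in residents (median 767.6), a ratio of 1.69. NDUFA12, another accessory subunit of complex I, ran from 252.9 to 445.1 CPM in migrants (median 328.6) and from 260.8 to 433.5 CPM in residents (median 325.6), a ratio of 1.76. The narrowest of the family was NDUFS1 at 1.56. The log2 fold changes of NDUFA5, ATP5C1 and NDUFA12 were -0.12, -0.08 and -0.03. Without migrant 1 they were -0.0055, 0.018 and 0.062, and without resident 4 they were -0.23, -0.16 and -0.12.

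Over all 56 members the highest library was 1.56 to 3.29 times the lowest, with a median of 2.19. The median CV between birds was 24.9%, and 17.7% without migrant 1 and resident 4, while the CV expected from counting was between 0.698% and 5.85% and was below the observed CV in 56 of 56. All elements tested had a median CV of 22.3%, and 18.8% without these libraries. Among other elements at or above the lowest member's level the medians were 17.2% and 13.8%. ATP5D, a subunit of the central stalk of ATP synthase, had a CV of 22% with these 2 libraries and 6.90% without them. The CV of NDUFA11 was 39.6% with them and 21.7% without, and that of ATP5G1 was 26.0% and 9.64%.

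Genes of neighbouring pathways were examined from the same slice of the annotation. All 19 mitochondrial ribosomal protein genes were tested, 0 passed the adjusted p in either direction, and 14 had estimates below 0, with a median log2 fold change of -0.10 against 0.00 for all elements. Their median r was 0.84 with the oxidative phosphorylation level and 0.75 with the cytosolic ribosomal protein level, with which MRPL23 and MRPL33 reached 0.96. Of 9 genes with EIF or EEF symbols, which are translation factors apart from the kinase EIF2AK3, 5 were estimated lower and 4 higher in residents (median -0.01). EEF1B2, an elongation factor subunit whose messenger belongs with those of ribosomal proteins in vertebrates, had an r of 0.94, whereas EIF2AK3, a kinase of the unfolded protein response, had 0.03.

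Among mitochondrial genes outside the complexes, 6 of 6 assembly factors of the respiratory chain were estimated lower in residents (median -0.12) and 0 of 6 passed. COX19, an assembly factor of complex IV, had the largest estimate, with 100.7 ± 22.9 CPM in migrants (SD, n = 6) and 77.8 ± 24.0 in residents (SD, n = 7) and a log2 fold change of -0.37 (SE 0.20). The assembly factors followed the ribosomal protein level less closely than the subunits, with a median r of 0.42 (0.49 with the oxidative phosphorylation level). COX19 itself was at 0.75 and 0.81, in that order. The assembly factors had a median level of 89.6 CPM, against 466.5 CPM for the oxidative phosphorylation subunits. Migrant 1 and resident 4 were the highest pair for 0 of 6 assembly factors, and 1 of these libraries was highest for 2 of 6. Cytochrome c (CYCS), which carries electrons from complex III to complex IV, had an r of 0.91 with the oxidative phosphorylation level. The median log2 fold change was -0.04 for 8 other mitochondrial energy genes, -0.11 for 5 genes of mitochondrial import and -0.06 for 10 proteasome subunits, and 0 members of these lists passed the adjusted p or had an unadjusted p under 0.05. Migrant 1 or resident 4 was highest for 16 of 19 mitochondrial ribosomal protein genes, 6 of 9 EIF and EEF genes and 6 of 8 other energy genes. The same held for 5 of 5 import genes and 8 of 10 proteasome subunits. These 2 libraries were the highest pair for 10 of 19, 4 of 9, 4 of 8, 1 of 5 and 4 of 10, in that order. The 10 proteasome genes had a median r of 0.57 with the ribosomal protein level. The 4 further family members that carry locus numbers in place of symbols had a median r of 0.92 with it and a median log2 fold change of -0.09.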

How the data were processed

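Hypothalamic RNA of 6 migrant and 7 resident juncos was measured, 1 library per bird. Per the paper and labels, the authors trimmed reads with Trimmomatic 0.33, mapped them with STAR 2.5.3a to a junco draft genome, and deposited raw counts of read pairs per element from featureCounts (Subread 2.0.0 and GSNAP also stand in the submitters' processing notes). Whether the counting used strand was not given in the sources used here. Gene symbols came from a shortened copy of the study's annotation, of which 965 tested elements in its identifier range had one. Members, lists and tests were chosen with earlier results of these data known.

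Counts of 9938 elements (at least 5 counts in at least 6 libraries) were fitted with edgeR 4.0.16 (TMM factors, quasi-likelihood test, population as the single term) in R 4.3.3, with Benjamini-Hochberg adjustment over all of them. Fold changes are resident minus migrant. Levels are CPM with TMM factors, and log2 levels use a pseudocount of 1 CPM. Single genes were also compared by exact permutation over 1716 divisions of 13 birds, whose smallest p is 0.000583. Alternatives were DESeq2 1.42.0, limma-voom 3.58.1, upper-quartile, RLE and no scaling factors, TMM factors without the members, other filters, a replicate block, library number as a covariate, and leaving out birds. Of these steps, the edgeR fit alone was tried on simulated counts, in which the changed genes differed by more than the median fold changes given above. Genes chosen by rule to be described singly were, in each family, the 3 with the smallest p, the highest mean CPM, and the largest and smallest ratio of highest to lowest library. RPS25, the genes with the lowest r, RPL36, COX7B and ATP5D were added after their values were seen. Labels do not pair the birds. Isotope and hormone measurements were not analysed here, and the values of 1 marker list are not reported here.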

Additional observations from a re-analysis of the deposited data

Results flagged for a closer look

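The 18 genes chosen by rule and 4 measures of the libraries (both shares and both ratios) were examined in each population, 44 groups in all. The search was for a bird that stood apart from the rest of its population by more than Dixon's limit on the gap divided by the whole range. For groups not picked from their own values, chance flags about 1 in 20. Some of these genes were picked for a small p or a wide range in the same data, so that rate does not apply. Flags were found in 6 groups, all in migrant 1 or resident 4, which already stood apart on the first principal component. In migrants, migrant 1 was highest for RPLP1 (gap of 0.643 of the range, 2316 CPM against 1522 in the next bird) and for COX6A1 (0.629, 2693 against 1595 CPM). In residents, resident 4 was highest for RPLP1 (0.657, 1773 against 1102 CPM), RPL15 (0.667, 1487 against 983.7 CPM), RPL5 (0.678, 1351 against 950.7 CPM) and NDUFA11 (0.594, 210.5 against 160.3 CPM). Neither share and neither ratio stood apart in this way in either population. The genes move together, so these are not separate events.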

How the results depend on the processing

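The count of members past an adjusted p of 0.05 was 0 in all 24 alternative fits. The count at an unadjusted p under 0.05, 1 in the edgeR fit, was 3 without migrant 1 and resident 4 together (RPLP1, ATP5G1 and NDUFA11) and between 1 and 8 when single birds were left out, 2 without migrant 3 and 8 without resident 4. NDUFA11 was among them each time. The share of all elements at such a p was taken only in the edgeR fit with all birds (2.14% lower and 2.3% higher in residents). The counts in the other fits have no such share beside them and were not read as a difference between populations. The median log2 fold change ran from -0.24 to 0.00 for ribosomal protein genes and from -0.23 to 0.01 for oxidative phosphorylation genes when single birds were left out, and from -0.33 to -0.06 and -0.28 to -0.05 in the other alternatives. Of 432 values for the 18 genes chosen by rule, 418 kept their direction and side of the threshold, and the other 14 changed sign close to 0. With single birds left out, the log2 fold change ran from -0.21 (without resident 4) to 0.0059 (without migrant 1) for RPS3A, from -0.24 to 0.029 for RPS7, from -0.27 to 0.018 for RPL31, from -0.20 to 0.036 for RPL5, from -0.19 to 0.026 for COX7A2, from -0.16 to 0.018 for ATP5C1 and from -0.12 to 0.062 for NDUFA12, with the same birds at the ends. Without resident 5, RPS7 (0.022), COX7A2 (0.013) and NDUFA12 (0.014) changed sign, as did NDUFA12 without migrant 5 (0.0045) and COX7A2 without resident 7 (0.018). For NDUFS1, the change was 0.092 without migrant 4 and 0.14 with all birds. The cause was not tested. Same-numbered birds showed no shared deviation (correlations -0.18 to 0.06). This cannot exclude a pairing, but the labels give none. With a replicate block, which leaves out resident 7, the counts were 0 and 1, the medians -0.06 and -0.05, and COX7A2 (0.030) and NDUFA12 (0.0051) changed sign. Mean shares moved by less than 1 SD between birds under every denominator. Leaving out a single bird can never move a mean by 1 SD, whatever the values, so nothing was concluded from that step for the shares. With 6 and 7 birds and standard errors of 0.12 to 0.24, differences the size of these medians could not be told from the spread between birds.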
